A study of Mus musculus with 51 samples.

Results

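The replication-dependent histone genes were taken as all genes whose symbol starts with Hist1h, Hist2h, Hist3h or Hist4h, which gave 69 of the 24538 genes in the expression tables. By the histone in the symbol these were 6 H1, 19 H2a, 19 H2b, 12 H3 and 13 H4 genes. The symbols placed 55 of them in the Hist1 cluster on chromosome 13, 10 in the Hist2 cluster on chromosome 3, 3 in the Hist3 group on chromosome 11 and 1, Hist4h4, alone on chromosome 6 (GRCm38). Of the 55, Hist1h2al lies apart from the others at chr13:51200084-51203066, and its RefSeq symbol H2af-ps2 is that of a pseudogene. Expression was measured by RNA-seq of total RNA in 18 samples of mouse embryonic stem (ES) cells and of mesoderm made from them with 20 ng/ml Bmp4. For F1G4 wild-type (WT) cells, 2 samples each came from the ES stage, day 1, day 2 and day 3, and the labels list 1 sample for every KO line and day. In the paper ES stands for the embryoid body stage, that is, aggregates of ES cells before Bmp4, and ES is used in that sense below. Eomes KO cells and T KO cells, in which promoter and exon 1 of that gene were removed, were made from F1G4 cells by nicking on both strands with Cas9 D10A. Single clones were picked and screened, and how many clones stand behind each KO column is not given. The Eomes and T dKO cells were made in the same way from the Eomes KO cells. These 3 lines were sampled on days 2 and 3. In Smad4 KO cells transient Cre had removed the floxed first exon of Smad4 from conditional mESCs on a 129S/SvEvxC57BL/6 background. Here too single clones were expanded and screened. Their WT were cells of the line that still carried the conditional alleles. This line was sampled on days 1 and 2, and feeder cells were removed before differentiation began.

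Replication-dependent histone genes supply the core histones H2A, H2B, H3 and H4, which form the nucleosome, and the linker histone H1, which binds the DNA between nucleosomes. They are transcribed mainly while DNA is copied in S phase, and their mRNAs end in a conserved stem-loop that binds the protein Slbp in place of a poly(A) tail. Libraries selected for poly(A) miss most of these mRNAs, whereas libraries from total RNA, as here, retain them. The genes stand in clusters of near-identical copies, so short reads cannot always be assigned to a single gene.

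All values below are FPKM, fragment counts scaled by transcript length and by a size factor of the library. Each table gave 1 value per gene and condition, so no replicate spread, no error and no test could be had, and the sequencing depth is unknown. Examined genes had an FPKM above 1 in either column of a comparison, and a gene was called higher or lower when the log2 ratio was above 1 or below -1. The column sums of all genes ran from 401510 to 608585 FPKM, and 10416 to 11248 genes were above 1. In bulk RNA, more cells in S phase and more histone RNA per cell cannot be told apart.

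The targeted genes were read first. In the Eomes KO table of day 2, Eomes was at 9.42 FPKM in WT against 2.42 in KO cells, and on day 3 it was at 20.3 against 0.276. In the T KO tables, T was at 44.8 in WT against 6.64 in KO cells on day 2, and on day 3 it was at 323 against 3.00. In the dKO cells Eomes was at 1.24 and T at 2.77 on day 2, and at 0.346 and 1.93 on day 3. The FPKM of the whole Smad4 gene does not show the loss of an exon: WT and KO cells had 33.8 and 39.4 on day 1, and 39.3 and 46.8 on day 2. Feeder cell markers (6 fibroblast genes such as Col1a1 and Dcn) summed to at most 3.63 FPKM in any condition, and their part in the results was not tested.

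A property of the tables limits what can be said of single copies. The 6 tables of the Eomes KO, T KO and dKO cells repeat the F1G4 WT columns of the time course, scaled by factors of 0.989 to 1.04. After this scaling, 60 or 61 of the 65 or 66 members examined were within 0.05 on the log2 scale of their time-course value. The 4 exceptions beyond 0.25 were Hist1h2ao, Hist1h2ap, Hist2h2aa1 and Hist2h3c2, while 11 or 12 of all 10922 to 10990 genes examined (0.1% to 0.11%) deviated by as much. Hist2h2aa1 stood at 148 FPKM for WT day 2 in the time course and at 76.5 for the same cells in the Eomes KO table. Hist1h2ao stood at 47.5 in the time course and 16.2 in that table. Each of the 4 has a copy with the same coding sequence, and 80.1% to 100% of their 50-base windows occur in another member. The same holds for Hist1h2bq, Hist1h2br, Hist1h4m and Hist1h4n, with 89.9% to 100% of windows shared, and these did not deviate. Why the 4 did was not tested. Levels of the 4 deviating genes are not comparable across tables, which bears on the comparison of the WT lines.

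The 3′ ends of the member transcripts show the element that sets this gene group apart. Among RefSeq transcripts (GRCm38.p6), 64 of the 69 members carried, within the last 40 bases, a run of 6 bases, a loop of 4 bases and the reverse complement of the 6. The 5 without one were Hist1h2an, Hist1h3e, Hist2h2be and the pseudogenes Hist1h2al and Hist3h2bb-ps. The stem was GGCTCT in 51 members, which included every H1 gene and no H4 gene, and it was GGCCCT in 11 and GGTCCT in 2 members, all H4. The loop was TTTC in 51, TTTA in 8, TTTT in 3, TCTC in 1 and TCTT in 1. Between 4 and 8 bases followed the stem. The full 16-base run most often seen was shared by 41 members. The sequences below show the most abundant H1, H2b and H4 genes, the testis-expressed pair Hist1h2aa and Hist1h2ba, and an H4 gene with the rarer stem, written as DNA from 5′ to 3′ with stem and loop in capitals.
Hist1h1a: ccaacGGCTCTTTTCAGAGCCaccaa
Hist2h2bb: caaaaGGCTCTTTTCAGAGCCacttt
Hist1h2aa: aaaaaGGCTCTTTTCAGAGCCacctt
Hist1h2ba: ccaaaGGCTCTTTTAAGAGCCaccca
Hist1h4d: ccaaaGGCCCTTTTCAGGGCCacta
Hist1h4b: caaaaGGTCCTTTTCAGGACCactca

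The copies share much of their sequence. Of all 50-base windows of a member's transcript, a median of 57% occurred in another member as well, 39 members shared over 50% of theirs, 11 shared over 80%, and 6 shared none. The 6 were Hist1h1a, Hist1h1b, Hist1h1t, Hist2h2bb, Hist2h2be and Hist4h4. All 13 H4 genes encode the same protein, so the H4 sum is at the same time the sum over 1 protein. Pairs with identical coding sequences were Hist1h2ao and Hist1h2ap, Hist2h2aa1 and Hist2h2aa2, Hist1h2bq and Hist1h2br, Hist2h3c1 and Hist2h3c2, and Hist1h4m and Hist1h4n. Sums are given for these pairs beside the main results on them.

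Histone RNA was abundant, and its sums in the 4 WT stages lay close together. From ES cells to day 3 the 69 genes summed to 14921, 15256, 14989 and 15108 FPKM, which was 2.91% to 3.23% of all FPKM. The log2 ratios of these sums were 0.03 for day 1 to ES, -0.03 for day 2 to day 1, 0.01 for day 3 to day 2 and 0.02 for day 3 to ES. Over the same stages the mesoderm markers T, Eomes, Mixl1, Mesp1 and Fgf8 went from a sum of 1.31 to 416 FPKM. By type, H2b genes summed to 5312 to 5840 FPKM, H4 to 3227 to 3615, H1 to 3265 to 3492, H2a to 2148 to 2376 and H3 to 404 to 457. H3 RNA was the lowest of the 5 types in every stage. No type differed between 2 stages by more than 0.18 on the log2 scale.

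**Figure D1:**
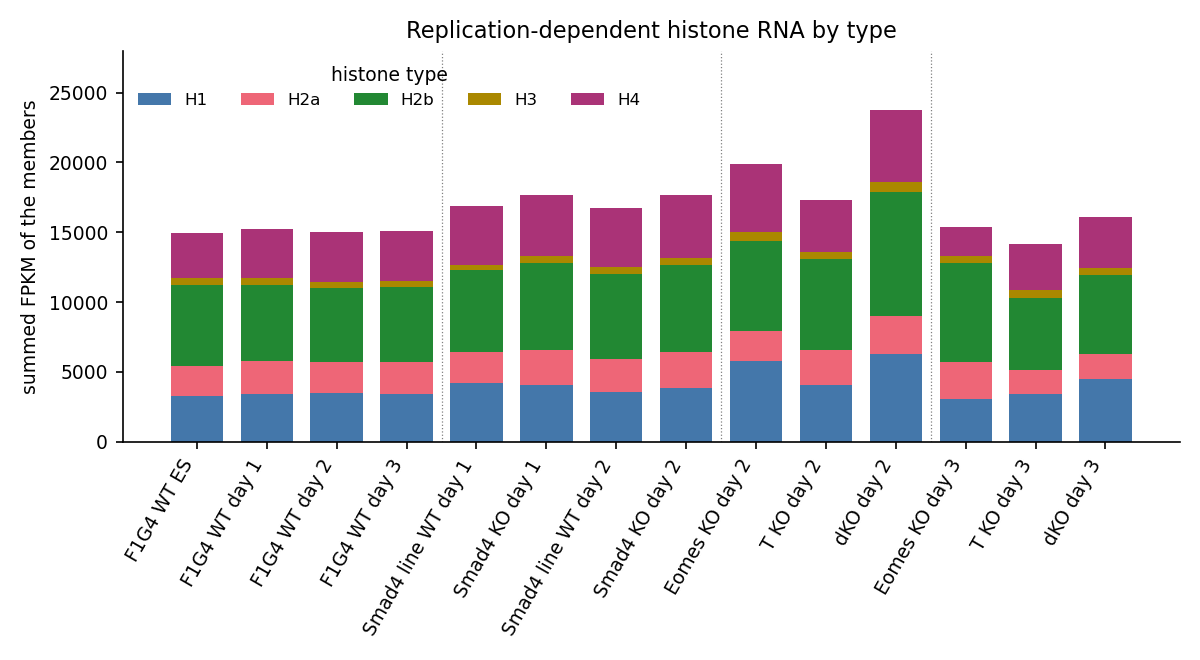
Summed FPKM of the replication-dependent histone genes in each of the 14 conditions, stacked by histone type, 1 value per condition with no replicate error. The 4 F1G4 WT stages lie between 14921 and 15256 FPKM, and the highest bar is that of dKO day 2 at 23762.

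Of the 69 members, 64 were above 1 FPKM in all 14 conditions, and 1, the H3 gene Hist2h3c1, was above 1 in none, while its sum with its copy Hist2h3c2 was 7.01 to 9.15 FPKM in the 4 stages. Hist2h2bb, an H2b gene of the Hist2 cluster (chr3:96269700-96270192, + strand, 1 exon), was the highest member throughout. From ES cells to day 3 it was at 4428, 4006, 3787 and 3748 FPKM, or 29.7%, 26.3%, 25.3% and 24.8% of all histone FPKM. It held 69.7% to 75.8% of the H2b sum, and among all genes it ranked between 3 and 5 in the 4 stages. Hist2h2bb shares no 50-base window with another member, but GENCODE places a predicted gene, Gm42743, over it on the same strand, and the reads of overlapping genes on the same strand cannot be told apart. The H1 gene Hist1h1a (chr13:23763668-23764412, + strand, 1 exon) came next, at 1428, 1573, 1539 and 1426 FPKM from ES to day 3. Hist1h4d led the H4 genes with a mean of 926 FPKM over the 4 stages, followed by Hist1h4f and Hist1h4b. Among H2a genes Hist2h2ac (mean 587) and Hist3h2a (mean 492) were highest, and among H3 genes Hist1h3e (94.7 to 118) was. The other leading H1 genes were Hist1h1b (577 to 667 over the 4 stages) and Hist1h1c (526 to 610), the next H2a gene was Hist1h2ab (160 to 181), and the next H3 genes were Hist1h3d (mean 81.4) and Hist1h3g (mean 57.7). After Hist2h2bb came the H2b genes Hist1h2bb (677 to 909) and Hist1h2bm (129 to 145), so the gap within H2b was wider than in the other types.

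**Figure D2:**
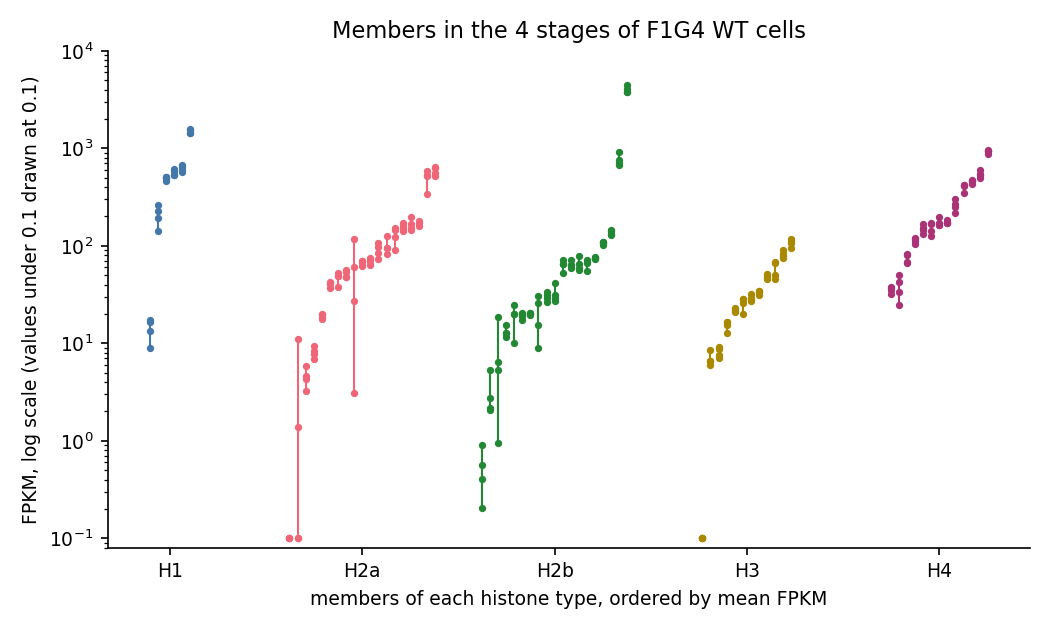
FPKM (log scale) of each member in the 4 F1G4 WT stages, 1 point per stage joined by a line, ordered by mean within each histone type; values under 0.1 are drawn at 0.1. Most members stay within a narrow range, while the H2a gene Hist1h2aa runs from 117 to 3.10 and Hist2h2bb stands above all others.

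The Hist2 cluster held both the highest member and the lowest ones. From ES cells to day 3 its H4 gene Hist2h4 was at 218, 301, 271 and 249 FPKM, its H2a gene Hist2h2ab at 81.6, 94.1, 94.3 and 126, and its H3 gene Hist2h3b at 28.8, 25.8, 20.1 and 28.8. Hist2h2be, an H2b gene known for a polyadenylated form, was at 0.203 to 0.910 in these stages and reached 1.44 in Eomes KO cells on day 3. Hist2h2aa2 was listed at 0 in all 4 stages, where its copy Hist2h2aa1 was at 143 to 171. Hist4h4, the H4 gene on chromosome 6, was at 163, 163, 199 and 173.

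From stage to stage few members passed the call rule. On day 1 against ES, 3 of 65 examined members were called higher (Hist1h2ba, Hist1h2br and Hist3h2ba, with Hist1h2br and its copy Hist1h2bq together at log2 0.28) and 0 lower, where 7.7% of all examined genes were called higher and 5.84% lower. On day 2 against day 1, 1 of 66 was called higher and 3 lower, against 7.18% and 4.13% of all genes. On day 3 against day 2, 0 were higher and 4 of 66 lower, against 6.14% and 4.06%. Over the whole course, day 3 against ES, 1 of 66 was higher and 2 were lower, where 18.5% of all genes were higher and 12.6% lower. The 2 lower members over the whole course were Hist1h2aa and Hist1h2ba, and the member called higher, Hist1h2ap, is a copy whose reads are divided with Hist1h2ao. The sum of that pair went from 53.4 to 48.9 FPKM, a log2 ratio of -0.13.

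Hist1h2aa and Hist1h2ba, the H2A and H2B genes known for their expression in testis, followed the same course. From ES cells to day 3, Hist1h2aa stood at 61.1, 117, 27.4 and 3.10 FPKM. Hist1h2ba stood at 6.48, 18.7, 5.31 and 0.943. Both were highest on day 1 and lowest on day 3, with log2 ratios of day 3 to ES of -4.30 for Hist1h2aa and -2.78 for Hist1h2ba. The linker histone gene Hist1h1t, likewise known from testis, was at 16.6, 17.5, 13.5 and 8.97 and was not called. The WT cells of the Smad4 line showed the day 2 drop too: Hist1h2aa was at 45.2 on day 1 and 8.48 on day 2, and Hist1h2ba at 13.0 and 4.07.

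The pair lies head to head on chromosome 13, with Hist1h2ba at chr13:23933725-23934156 on the - strand and Hist1h2aa at chr13:23934437-23934913 on the + strand, each with 1 exon. The window from 250 bases before to 50 bases after the start of Hist1h2aa (RefSeq, GRCm38.p6, chr13:23934187-23934486, + strand) covers most of the sequence between them, and it is shown because both genes had the same course over the WT stages. They did not do so in every KO line: in Smad4 KO cells on day 2 Hist1h2aa was called lower while Hist1h2ba was at 4.07 in WT and 4.09 in KO cells, and in Eomes KO cells on day 3 Hist1h2aa went from 3.24 to 7.16 while Hist1h2ba was at 0.990 and 1.04. Capitals mark matches on either strand to the octamer ATTTGCAT (here read as ATGCAAAT), to CCAAT (or ATTGG) and to TATAAA (or TTTATA).
Hist1h2aa: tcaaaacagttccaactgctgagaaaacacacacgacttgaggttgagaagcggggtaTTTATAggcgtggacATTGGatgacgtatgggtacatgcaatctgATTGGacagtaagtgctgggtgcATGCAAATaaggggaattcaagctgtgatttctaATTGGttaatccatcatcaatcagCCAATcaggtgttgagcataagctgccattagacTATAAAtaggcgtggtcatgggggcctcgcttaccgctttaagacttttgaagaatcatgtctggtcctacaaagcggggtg
The octamer stood in 13 of the 62 member promoters found in RefSeq (21%), 7 of H2a and 6 of H2b genes, and in 1.8% of 27025 promoters of all genes. CCAAT stood in 53 of the 62 (85.5%) against 37.9% of all genes, in every H1, H2a, H2b and H3 promoter and in 3 of 12 H4 promoters. TATAAA stood in 35 (56.5%) against 14.2%. The windows of head-to-head genes can overlap, so the same match can count for both, as the octamer did for Hist1h2aa and Hist1h2ba. The 13 members with the octamer had a median log2 ratio of 0.07 for day 3 to ES, and the other H2a and H2b genes with a promoter in RefSeq one of -0.07. In all 6 comparisons of Eomes KO, T KO and dKO cells with WT, the octamer set had the lower median. The gap was smallest in dKO day 2 (0.638 against 0.675) and widest in T KO day 2 (0.19 against 0.687). These comparisons share WT cells, and the difference was not tested.

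The 3 Hist3 genes lay at their lowest in ES cells. Hist3h2a, an H2a gene outside the large clusters, was at 343, 526, 581 and 520 FPKM from ES cells to day 3, with log2 0.60 for day 3 to ES, not called. RefSeq places Trim17 over it on the same strand, and reads of the 2 genes cannot be told apart where they overlap. Hist3h2ba, its H2b neighbour, was at 9.03, 26.1, 30.8 and 15.6 and was called higher on day 1 (log2 1.53). The pseudogene Hist3h2bb-ps was at 10.1, 19.8, 24.8 and 19.8. Among linker histones, Hist1h1e was at 142, 192, 225 and 260, without a call. The largest H2b gene after Hist2h2bb, Hist1h2bb, was at 677, 710, 762 and 909.

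**Figure D3:**
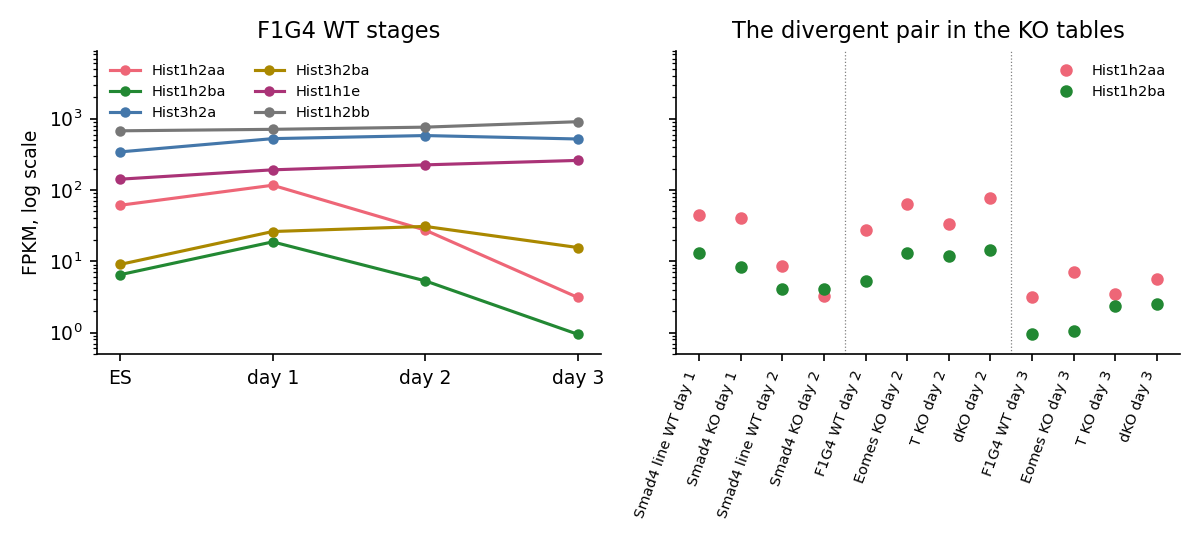
FPKM (log scale), 1 value per condition. Left, 6 members over the F1G4 WT stages, with Hist1h2aa and Hist1h2ba highest on day 1 and lowest on day 3. Right, Hist1h2aa and Hist1h2ba in the KO lines and the WT of the same day, where Hist1h2aa is higher on day 2 in Eomes KO (64.0) and dKO (76.4) than in WT (27.4).

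In Smad4 KO cells the histone sums lay close to WT. On day 1 the WT sum was 16901 FPKM and the Smad4 KO sum 17657 (log2 0.06), and on day 2 they were 16714 and 17687 (log2 0.08). On day 1, 1 of 66 members was called higher and 1 lower, against 2.36% and 2.41% of all genes. On day 2, 0 were higher and 2 of 65 lower, against 2.56% and 3.21%. The 2 were Hist1h2aa, at 8.48 in WT and 3.27 in KO cells, and Hist1h2br, whose summed level with its copy Hist1h2bq was 29.7 and 27.5. The day 1 calls, Hist1h4n (5.60 and 14.1) and Hist2h2aa2 (5.65 and 1.32), also belong to identical pairs, and the pair sums gave log2 ratios of 0.07 and 0.31.

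On day 2, the histone sum was higher in Eomes KO and dKO cells than in WT, and most members were above WT. In the Eomes KO table the sum went from 14732 FPKM in WT to 19911 (log2 0.44), with 54 of 66 members above WT. In dKO cells it was 14703 in WT and 23762 (log2 0.69), with 62 of 66 members above WT. In Eomes KO cells 15 members were called higher and 4 lower, against 3.35% and 4.17% of all genes. In dKO cells 15 were higher and 4 lower as well, against 3.48% and 4.5%. With members of identical protein summed first, 4 protein groups or single members were higher and 1 lower in Eomes KO cells, and 5 and 0 in dKO cells. The summing leaves fewer units than the 66 members, so these counts cannot be set directly against the 15 and 4 above. Both comparisons use the same WT cells, so they are not independent. Coding genes other than histones with transcripts of at most 800 bases had a median log2 ratio of 0.22 in Eomes KO and 0.49 in dKO cells, and short RNA genes of at most 300 bases one of 2.50 and 2.71, while the median of all genes was -0.01 in both. Short transcripts as a class were thus higher in these columns, and their part in the histone sums was not tested. Scaled to the short coding genes, an alternative chosen after the data were seen, the log2 ratios of the sums were 0.22 and 0.21. Scaled to TPM, 7 members were called higher and 5 lower in dKO cells, and the sum was at log2 0.28. The share of all genes called with TPM was not taken.

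The H1 and H3 sums differed most from WT, while the H2a sum was at 2071 in WT against 2135 with Eomes deleted (log2 0.04, and -0.17 to 0.16 under the alternatives) and at 2067 and 2735 in the dKO table (0.40). The H1 sum was 3462 in WT against 5810 with Eomes deleted (log2 0.75), and 3455 against 6257 in the dKO table (0.86), and all 6 H1 genes were above WT in both lines. Hist1h1a went from 1525 to 3159 in Eomes KO cells (log2 1.05) and from 1522 to 3250 in dKO cells (1.09). Hist1h1d, another linker histone, went from 461 to 993 in dKO cells (1.11), and in Eomes KO cells it was at 912 (0.98, not called). The H3 sum was 397 in WT, 683 with Eomes deleted (log2 0.78) and 752 in dKO cells (0.92). The H3 genes Hist1h3c, Hist1h3f and Hist1h3h were called higher in both lines. Hist1h3h, for example, was at 20.8 in WT and at 56.4 and 56.3 in Eomes KO and dKO cells.

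Hist1h2bc, an H2b gene known to be made also as a polyadenylated mRNA, was called higher on day 2 in all 3 lines made from F1G4 cells. In Eomes KO cells it went from 59.3 in WT to 160 (log2 1.43), and it was at 61.7 and 170 in T KO cells (1.46) and at 59.1 and 138 in dKO cells (1.23). With Hist1h2be and Hist1h2bg, which encode the same protein, the log2 ratios were 0.83, 0.92 and 0.88. The testis-known pair was higher as well: Hist1h2aa was at 27.1 in WT, 64.0 in Eomes KO and 76.4 in dKO cells, and Hist1h2ba at 5.27, 13.1 and 14.3. In T KO cells on day 2 Hist1h2ba was called higher (5.48 and 12.0) and Hist1h2aa was at 28.2 and 33.5. Of the H4 genes, Hist1h4a and Hist1h4c were called higher in both lines and Hist1h4h and Hist1h4i in Eomes KO cells. Hist1h4c, for example, was at 131 in WT, 309 with Eomes deleted and 316 in dKO cells. Hist1h1c, an H1 gene with a known polyadenylated form, was not called in any of the comparisons (log2 -0.24 to 0.61). Hist2h2bb was at 4445 FPKM in Eomes KO (log2 0.24) and at 6616 in dKO cells (0.82), not called in either.

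In Eomes KO cells on day 3, the H4 sum was the lowest of the 14 conditions. The WT total was 15682 and the KO total 15341 (log2 -0.03), with 6 of 67 members called higher and 13 lower, against 7.39% and 9.01% of all genes. Scaled to TPM the split turned to 11 higher and 7 lower, and the share of all genes called with TPM was not taken. With identical proteins summed, over fewer units, it was 3 and 2. The H4 sum went from 3777 to 2066 (log2 -0.87), with 12 of 13 H4 genes below WT and 7 called lower. Among them Hist2h4 was at 261 and 78.5 (log2 -1.73), Hist1h4h at 181 and 72.7 (-1.31), and Hist1h4f at 623 and 296 (-1.07). Hist1h4d, the highest H4 gene, had a log2 ratio of -0.59 and was not called. The H2b sum lay on the other side, at 5621 and 7084 (log2 0.33), as did H2a at 2269 and 2623 (0.21). Here Hist2h2bb was at 5303, or 34.6% of all histone FPKM, the H2a gene Hist1h2ab went from 178 to 361 (log2 1.02) and the H2b gene Hist1h2bp from 12.2 to 26.1 (1.10). The linker histone genes diverged: Hist1h1b fell from 622 to 289 (log2 -1.10), Hist1h1a was at 867 against 1491 in WT (-0.78), and Hist1h1e was at 534 (0.97). Here the short coding genes had a median of -0.35. With the sums scaled to them the total was at log2 0.32 and H4 at -0.52, so only H4 stayed below WT among the 5 types under that scaling.

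In T KO cells on day 2 members were called in both directions. Their total was 17281 against 15336 in WT (log2 0.17). Of 67 members 12 were called higher and 11 lower, against 5.7% and 9.93% of all genes. With identical proteins summed, over fewer units, 4 were higher and 3 lower. Short RNA genes had a median of 2.30 and short coding genes one of -0.17 in these columns, and their part was not tested. Of the 13 members lower in the day 3 Eomes KO column and the 11 lower here, 7 were in both lists (53.8% and 63.6%), where 431 of all genes were in both (41.1% and 38.2%). Of the 6 and 12 members called higher, 2 were in both lists (33.3% and 16.7%), where 186 of all genes were (21.7% and 28.7%). The 7 were Hist1h1b, Hist1h2bq, Hist1h3d, Hist1h4n, Hist2h2aa1, Hist2h3c2 and Hist2h4, and 3 of them, Hist1h2bq, Hist2h2aa1 and Hist2h3c2, were lower in all 6 comparisons of these lines. For calls in all 6, the share of all genes was not taken. Hist1h1b, a linker histone gene that shares no window with other members, was at 688 in WT and 254 in T KO cells (log2 -1.44). Hist1h3d was at 81.0 and 35.3 (-1.20). Of the H4 genes Hist1h4b (486 and 168) was called lower here and Hist1h4a (85.0 and 214) higher, and the H4 sum was at log2 0.01. Hist1h1e was called higher, at 233 and 527 (1.18). Of the 19 H2b genes 7 were called higher, among them Hist1h2bn (21.3 and 55.1) and Hist1h2bj (42.4 and 93.9).

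**Figure D4:**
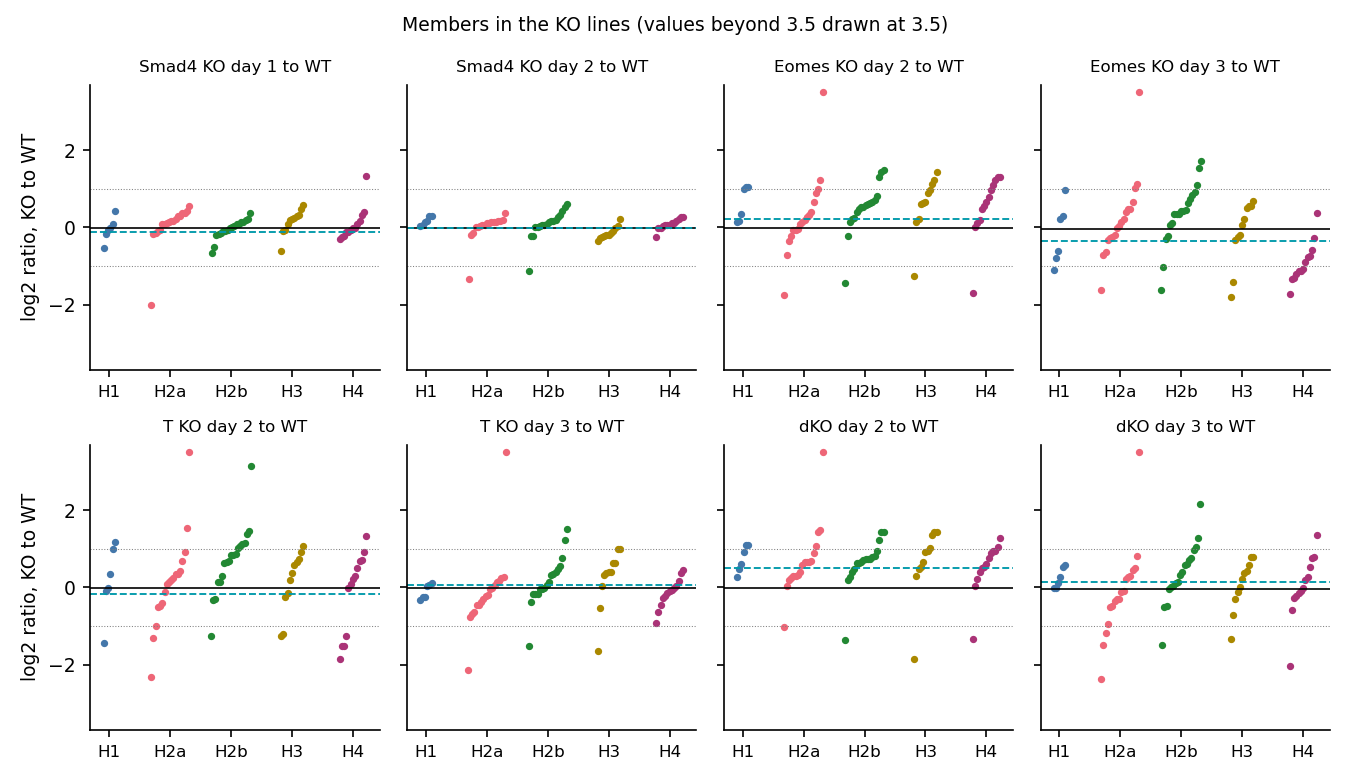
Log2 ratio, KO to WT, of each examined member (1 point per gene, 0.1 FPKM added, values beyond 3.5 drawn at 3.5), ordered within each histone type; the black line is the median of all examined genes, the dashed line that of short coding genes, and dotted lines mark 1 and -1. Most points lie above 0 in dKO day 2, and 12 of the 13 H4 genes lie below 0 in Eomes KO day 3.

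On day 3 in T KO and dKO cells the sums were again near WT. In T KO cells the total was 14123 against 15138 in WT (log2 -0.10), with 5 of 66 members called higher and 3 lower, against 2.12% and 3.92%. In dKO cells it was 16103 against 15594 in WT (log2 0.05), with 5 higher and 6 lower of 66, against 5.51% and 5.53%. With identical proteins summed, over fewer units, 1 was higher and 1 lower in T KO cells, and 2 and 2 in dKO cells. Short RNA genes had medians of 1.09 and 3.30 in these columns, and their part was not tested. H3 was the highest type in T KO cells, at 444 and 587 (log2 0.40), where Hist1h3c was at 51.6 and 103 (1.00) and Hist1h3h at 21.8 and 43.8 (1.01). H2a was below WT in both, at log2 -0.35 and -0.33. In dKO cells the H4 gene Hist1h4a was at 69.1 in WT and 176 in KO cells (1.34), and Hist3h2ba at 16.2 and 33.6 (1.05). Hist1h2ba was called higher in both, from 0.954 to 2.35 and from 0.984 to 2.52, levels near the minimum of 1 FPKM.

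Over the 6 comparisons of Eomes KO, T KO and dKO cells with WT, 3 members were called lower in every one, Hist1h2bq, Hist2h2aa1 and Hist2h3c2, and 1 was called higher in every one, Hist1h2br. All 4 belong to pairs with identical coding sequence, and the 3 comparisons of a day share their WT cells. The share of all genes called in all 6 was not taken, so whether these counts are unusual is not known. For the H2b pair the opposite calls partly cancelled in the sum. Hist1h2bq was at 17.7 to 20.7 FPKM in the WT columns and at 5.85 to 8.58 in the KO columns, and Hist1h2br at 2.03 to 2.88 and at 5.70 to 19.5. The log2 ratios of their sum were -0.74 and -0.45 in Eomes KO cells on days 2 and 3, 0.30 and -0.53 in T KO cells and -0.71 and -0.10 in dKO cells, none past the threshold. With all 6 H2b genes of the same protein, the log2 ratios ran from 0.03 to 0.90.

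The H2a pair Hist2h2aa1 and Hist2h2aa2 behaved otherwise, since its sum was lower in the KO columns too. In the Eomes KO tables it was at 76.5 in WT against 22.5 in KO cells on day 2, and 98.1 and 32.6 a day later. It was at 79.6 and 15.9, then 94.6 and 21.9, in T KO cells, and at 76.3 and 39.3, then 97.5 and 18.7, in dKO cells. The log2 ratios ran from -2.39 to -0.96, and 5 of the 6 were past the threshold. The H3 pair Hist2h3c1 and Hist2h3c2 was lower in all 6, at log2 -1.93 to -1.29, at sums of 5.16 to 6.67 FPKM in WT and 1.45 to 2.72 in KO columns. The H4 pair Hist1h4m and Hist1h4n was below WT in all 6 as well, with log2 ratios of -1.76 to -0.23. The H2a pair Hist1h2ao and Hist1h2ap was at -0.26 to 0.44. In the WT columns of the KO tables Hist1h2ap was at most 0.000153 FPKM, and in KO cells it reached 16.1, so no fold is given for it. In the Smad4 line the same 2 Hist2 pairs were at 0.31 and 0.48 on day 1 and at 0.09 and -0.19 on day 2, without a call. Values of the F1G4 WT columns for the Hist2 pairs depend on the table, as given above, and how much of the difference between KO and WT columns comes from the division of reads was not tested. GENCODE also places a gene, Gm20634, over Hist2h2aa1 and Hist2h3c1 on the same strand, and reads cannot be told apart where these overlap.

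**Figure D5:**
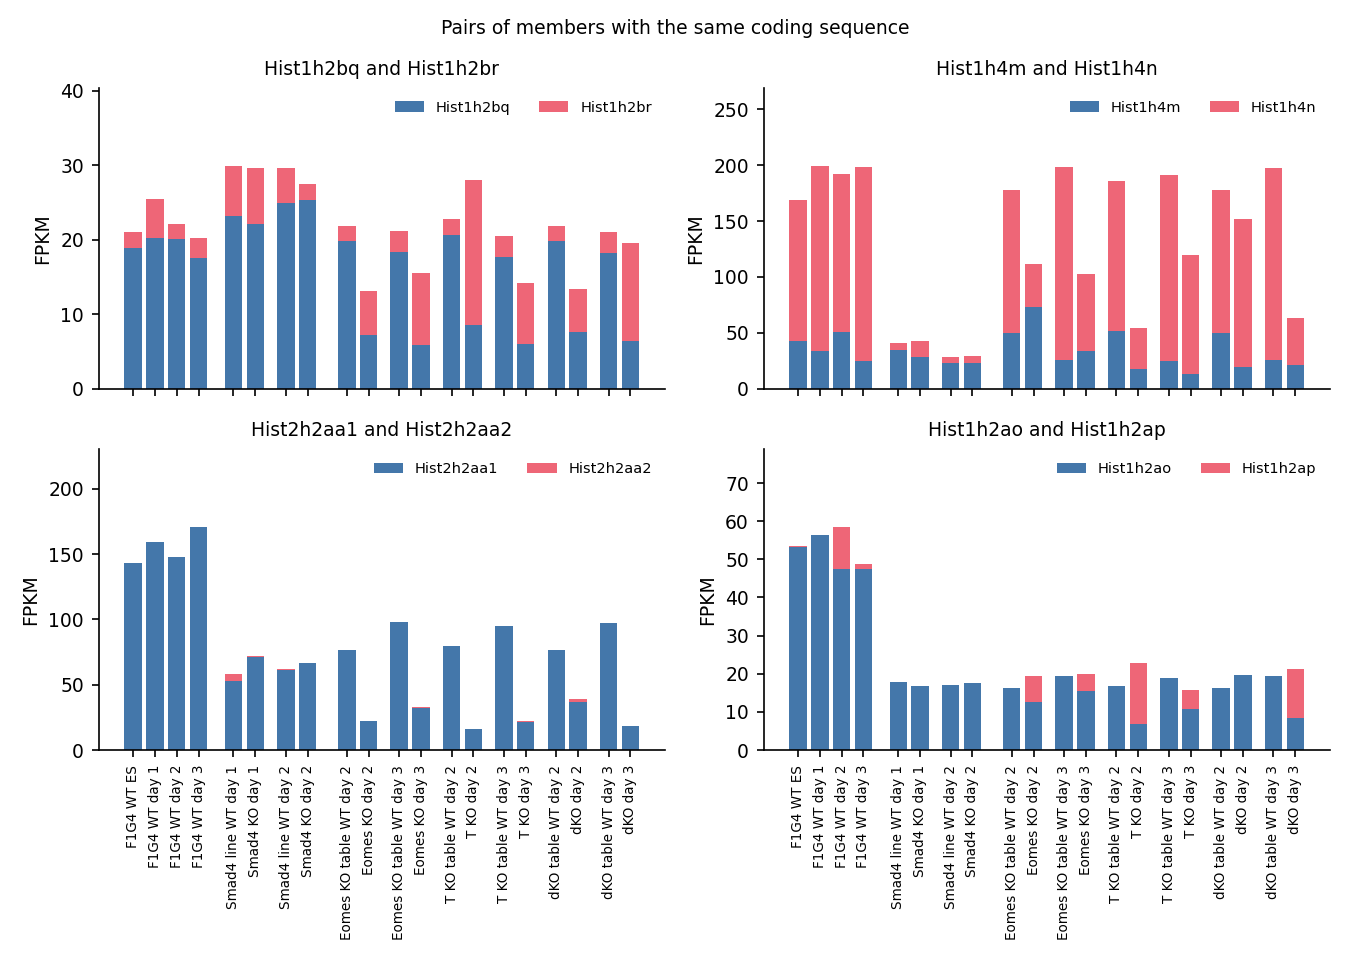
FPKM of 4 pairs of members with identical coding sequence, stacked, in the time course and in the WT and KO columns of each KO table, 1 value per column. The height of the Hist1h2bq and Hist1h2br bars changes less than their division, while the Hist2h2aa1 and Hist2h2aa2 bars are lower in every KO column made from F1G4 cells than in the WT column beside them, and both Hist2h2aa1 and Hist1h2ao are higher in the time course than in the WT columns of the KO tables.

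WT columns of F1G4 and of the Smad4 line were set side by side, across tables that were scaled separately. The total was 15256 in F1G4 WT and 16901 in the WT of the Smad4 line on day 1 (log2 0.15), and 14989 and 16714 on day 2 (0.16). Short coding genes had a median of 0.29 between the day 1 columns, and scaled to them the day 1 total was at log2 -0.14, the other direction, as were H2b (-0.19) and H4 (-0.046). On day 1, 5 of 66 members were called higher and 4 lower, against 6.58% and 4.27%, and on day 2, 3 were higher and 6 lower, against 1.53% and 3.62%. Of the lower calls, Hist1h2ao and Hist2h2aa1 on both days and Hist1h2ap on day 2 are of genes whose F1G4 WT value depends on the table. Hist1h2ao on day 2, for example, was at 47.5 in the time course, 16.2 in the WT column of the Eomes KO table and 17.1 in the WT of the Smad4 line. Without these genes 2 members were lower on day 1 and 3 on day 2. The H2b gene Hist1h2bn (19.6 and 69.4 on day 1, 20.6 and 49.6 on day 2) and the H2a pseudogene Hist1h2al (6.92 and 16.3, 8.26 and 20.5) were called higher in the Smad4 line on both days, and Hist1h2aa was called lower on both. The H4 pair Hist1h4m and Hist1h4n summed to 200 FPKM in F1G4 WT and 40.7 in the WT of the Smad4 line on day 1, and to 192 and 28.1 on day 2. Short RNA genes had a median of 1.16 on day 1 and 0.02 on day 2 between these columns.

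The genes that act on histone mRNA and on histone supply were read from lists. Of 7 genes of histone gene transcription, 2 were called lower on day 3 against ES, where 12.6% of all genes were: Pou2f1, a factor that binds the octamer (13.5 to 5.87), and Ccne1, the cyclin E that acts at the start of S phase (264 to 58.8). None of the 7 was called in any comparison of KO with WT. In these comparisons 2.41% to 9.93% of all genes were called lower and 2.12% to 7.39% higher. Of 14 genes of the 3′ end and turnover of histone mRNA, 13 were examined, and Rnu7, the U7 RNA, was listed at 0 in every column. Slbp, the stem-loop binding protein, ranged only from 107 to 154 over the 14 conditions. Ncbp2, a subunit of the cap-binding complex, was lower in the Eomes KO column of day 3 (33.6 to 11.3) and the T KO column of day 2 (38.6 to 7.97). It was the only 1 of the 13 called there, where 9.01% and 9.93% of all genes were called lower. Srrt, which works with the cap-binding complex, was the only 1 of the 13 called on day 3 against ES (150 to 58.0, lower).

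The genes of DNA replication had a median below that of all genes at the end of the time course. Of 30, 4 were called lower on day 3 against ES (Mcm10, Tk1, Pole and Rpa2) and 0 higher, with a median log2 ratio of -0.57 against -0.02 for all genes, of which 12.6% were called lower. Of 16 histone chaperones and related factors, 4 were called lower (Asf1b, Daxx, Atrx and Ipo4) and 0 higher, with a median of -0.66. Of 20 genes of G2 and mitosis none was called, with a median of -0.32. In Eomes KO and dKO cells on day 2, where the histone sum was highest, the replication list had medians of 0.04 and 0.05 with no call, and the G2 and mitosis list -0.09 and -0.03 with none. In Eomes KO cells on day 3, 9.01% of all genes were called lower and 7.39% higher. Of the 30 replication genes 1 was lower there, Lig1, the DNA ligase of replication (57.5 to 20.0). Of the 20 mitotic genes 2 were lower, Aurka and Birc5, and 2 higher, Ube2c and Mki67. In T KO cells on day 2, 9.93% of all genes were called lower. Of the 30 replication genes 2 were, Lig1 (54.4 to 15.7) and the ribonucleotide reductase subunit Rrm2 (120 to 38.9). So were 3 of 20 mitotic genes, Aurka, Cenpf and Birc5, and 3 of 16 chaperones, Rbbp7, Nasp and Nap1l1. In dKO cells on day 3, 1 of 20 mitotic genes, Cenpf, was called lower, against 5.53% of all genes.

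The replication-independent variants, which are made outside S phase as well, are mostly polyadenylated and were read for comparison. Of 11, 3 were called higher on day 3 against ES and 0 lower, where 18.5% and 12.6% of all genes were. From ES cells to day 3 the linker variant H1f0 was at 6.68, 9.61, 32.3 and 57.6 FPKM, and H2afy2, a macroH2A gene, went from 4.87 to 20.2 and H1fx from 1.47 to 4.80. H2afy, the other macroH2A gene, was the only 1 of the 11 called on day 1 against ES (56.8 to 20.6), where 5.84% of all genes were lower. H1f0 fell while Hist1h1a rose in Eomes KO and dKO cells on day 2, to 10.5 from 32.1 (log2 -1.61) and to 12.9 from 32.1 (-1.32). It was also lower in dKO cells on day 3 (59.9 to 23.0) and at 70.2 in Eomes KO cells on day 3. In Eomes KO day 2, dKO day 2 and dKO day 3 it was the only 1 of the 11 called. Of all genes 4.17%, 4.5% and 5.53% were lower there. H3f3b, which encodes the variant H3.3, was lower in the Eomes KO column of day 3 (476 to 204) and the T KO column of day 2 (389 to 107), whereas H3f3a, which encodes the same protein, was at 148 to 311 in all conditions. H2afx was called higher in T KO cells on day 2 (79.3 to 221), and Cenpa, the centromeric H3, lower in Eomes KO cells on day 3 (102 to 46.9). Of the 11 variants, 2 were thus lower in Eomes KO day 3, against 9.01% of all genes. In T KO day 2, 1 was lower and 1 higher, against 9.93% and 5.7%. H2afz went from 631 in ES cells to 365 on day 3, not called.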

How the data were processed

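Total RNA was made by the authors into strand-specific ScriptSeq libraries and read from both ends. Per the submitters' processing notes and the study's methods, FastQC and cutadapt 2.9 were used for quality and trimming, HISAT2 2.1.0 for alignment to mm10 (GRCm38) with refSeq annotations, leaving out mixed and discordant pairs, and SAMtools 1.9 for sorting. The deposited FPKM values come from Cuffdiff 2.2.1, run by the authors with its multi-read and bias corrections on and its effective length correction off. Multi-read correction divides reads among copies, so the level of a copy depends on that step. The scaling was not fixed by the library alone, since the same F1G4 WT columns differed between tables by factors of 0.989 to 1.04.

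The 9 tables, 1 of the WT time course and the others of KO and WT, each held 24538 genes and 1 FPKM value per gene and condition. The labels give 1 sample for each KO line and day, while the study's legends speak of averages of 2, so how many samples a KO column holds is not known. The depth is not given in the sources used here. Rows with a repeated symbol were left out of the time course, which left 24534 genes.

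FPKM values were summed over members and per type and compared within a table as log2 ratios, without a pseudocount. Medians use a pseudocount of 0.1. Members were named by the highest levels in each type, by the largest ratios among called members with an FPKM of at least 10, by known roles (testis and polyadenylated forms, genes outside Hist1) and, for list genes, by a call. Other named members, among them those of identical pairs, were chosen after their values were seen. Alternatives were TPM, median, protein-coding and short coding scaling, a pseudocount of 1, FPKM minima of 0 and 5, omission of members, medians, and sums over identical proteins. The calling step was run on simulated data with planted changes well past the threshold and an assumed noise. This checks the code and does not show how the rule performs on these data. Members were matched to RefSeq (GRCm38.p6) and GENCODE M21 through symbols and synonyms, all 69 with success. Python 3.11.15, numpy 2.4.6, pandas 2.3.3 and matplotlib 3.10.9 were used. Members and lists were chosen with earlier results of these data known.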

Additional observations from a re-analysis of the deposited data

Results flagged for a closer look

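Members called in opposite directions on the 2 days of a KO line, and type sums of opposite sign whose log2 ratios differed by over 1, came to 4 results, all of H4 RNA in Eomes KO cells. The share of all genes called in opposite directions on the 2 days was not taken, so such changes may not be particular to histone genes. The summed H4 FPKM had a log2 ratio to WT of 0.46 on day 2 and -0.87 on day 3, a difference of 1.33. Hist1h4c was called higher on day 2 (1.24) and lower on day 3 (-1.12), a difference of 2.36. Hist1h4h went from 1.30 to -1.31, a difference of 2.62, and Hist1h4i from 1.31 to -1.22, a difference of 2.53. Other members of this line also had ratios of opposite sign without a call on both days, such as Hist1h1a (1.05 and -0.78), Hist1h3d (0.64 and -1.42) and Hist4h4 (0.96 and -1.14). Each day has 1 value per condition, so the difference was not tested. Beside it, short coding genes had medians of 0.22 on day 2 and -0.35 on day 3 in the same columns.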

How the results depend on the processing

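No paired analysis was possible because each table gives 1 pooled value per condition. Scaling by the median of all genes and leaving out members with a long form moved none of the sums by 0.25 on the log2 scale, the shift counted here as a change, and no replicate could be left out. Where a value changed, the cause was not tested, except that the settings that sum or drop genes change the genes counted. Sums are given as log2 ratios in the order total, H1, H2a, H2b, H3 and H4. For Eomes KO day 3 they were 0.25, 0.075, 0.49, 0.62, 0.38 and -0.59 with TPM, 0.25, 0.07, 0.49, 0.61, 0.38 and -0.59 with protein-coding scaling, and 0.32, 0.14, 0.56, 0.69, 0.45 and -0.52 with short coding scaling, which was chosen after seeing the data. For dKO day 2 they were 0.28, 0.45, -0.004, 0.35, 0.52 and 0.13 with TPM, 0.39, 0.56, 0.10, 0.46, 0.62 and 0.24 with protein-coding scaling, and 0.20, 0.37, -0.084, 0.27, 0.43 and 0.053 with short coding scaling. Between WT lines on day 1 they were -0.14, 0.033, -0.41, -0.19, -0.44 and -0.046 with short coding scaling. As the median of members, H2b was at 0.56 in Eomes KO day 2, 0.84 in T KO day 2 and 0.37 in dKO day 3, H4 in Eomes KO day 3 passed the threshold at -1.07, and H1 between WT lines on day 1 was at 0.038. Without the highest member, H2b was at 0.21 for day 3 to ES, 0.065 in Eomes KO day 3 and 0.38 between WT lines on day 1, and H1 was at 0.45 and 0.10 in Eomes KO days 2 and 3.

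With TPM, members called higher numbered 6 for day 1 to ES, 3 for day 3 to ES, 11 in Eomes KO day 3, 7 in dKO day 2 and 5 between WT lines on day 2, and those called lower 2 in Smad4 KO day 1 and 7 in Eomes KO day 3. With FPKM above 5, 0 were higher for day 3 to ES and 3 in T KO day 3, and 1 was lower in Smad4 KO day 2. With no minimum, 1 was higher for day 3 to day 2, 3 for day 3 to ES and 1 in Smad4 KO day 2, and 2 were lower in Smad4 KO day 1. With a pseudocount of 1, 1 was lower in Smad4 KO day 2 and 2 were higher in T KO day 3. With identical proteins summed, over fewer units, 0 were higher for day 2 to day 1 and for day 3 to ES, and 2 were lower for day 3 to day 2. Lower and higher then numbered 0 and 0 in Smad4 KO day 1, 1 and 4 in Eomes KO day 2, 2 and 3 on day 3, 3 and 4 in T KO day 2, 1 and 1 on day 3, 0 and 5 in dKO day 2, 2 and 2 on day 3, and 2 and 1 between WT lines on both days, with 1 lower in Smad4 KO day 2. Single members that turned direction when their protein group was summed were Hist1h2ap (-0.15 for day 2 to day 1, 0.081 for day 3 to day 2, -0.005 in T KO day 2), Hist1h4n (0.46 in Eomes KO day 2, 0.007 in T KO day 2, 0.24 and 0.23 between WT lines), Hist1h2bq (0.31 in Eomes KO day 3, 0.026 in T KO day 3, 0.55 in dKO day 2), Hist1h4m (0.54 in dKO day 2) and Hist1h4a (-0.027 in dKO day 3). The share of all genes called was not taken under any of these settings. Depth is unknown and limits every low value.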
